A study of Homo sapiens with 4 samples.

Results

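The 9 genes described here are transcriptional targets of the tumour suppressor p53 that act mainly in growth arrest, repair and feedback: CDKN1A, MDM2, DDB2, CCNG1, RPS27L, SUSD6, SESN1, GDF15 and ZMAT3. They were taken by gene symbol, 9 of 28729 genes in the deposited table, and all 9 passed the filter on low values (a mean of at least 1 FPKM, a fragment count scaled to exon length and library size). RNA was sequenced from TU-177, a human laryngeal squamous cell carcinoma (LSCC) line. The cells were transduced with lentivirus carrying an shRNA against SKA3 (SKA3-KD, 2 libraries) or a negative-control shRNA (NC, 2 libraries), and both groups were selected with puromycin. SKA3 is a subunit of the spindle and kinetochore associated complex, which holds chromosomes to spindle microtubules in mitosis. The labels do not say how many shRNA sequences or separate cultures lie behind the 2 libraries of a group, so the p-values measure the spread between these libraries, which may be technical.

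p53 is a transcription factor that is normally kept low by MDM2, a ubiquitin ligase that is itself a p53 target, so that the pair forms a feedback loop. When DNA is damaged or division goes wrong, p53 accumulates and raises genes that stop the cell cycle, repair DNA, change metabolism or kill the cell. The best known arrest target is CDKN1A, whose product p21 inhibits cyclin-dependent kinases and so keeps the retinoblastoma family proteins active. In this state the DREAM complex, built on those proteins, represses many genes of mitosis.

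The targeted gene was checked first. SKA3 stood at 9.4 and 9.64 FPKM in the NC libraries and at 3.77 and 4.12 FPKM in the SKA3-KD libraries, a ratio of the means of 0.414 (adjusted p = 0.00806, limma). Both SKA3-KD libraries were thus lower, as their labels say. The library sizes recovered from the FPKM steps lay between 9015056 and 11966130 reads, and 1 read on 1 kb of exon was worth 0.0836 to 0.111 FPKM. The reads recovered on genes came to 102.2 to 103.8% of these sizes, and the cause of this excess was not tested. Of the epithelial markers, KRT17 (29.4 to 49.1 FPKM), KRT18 (31.1 to 39.2 FPKM) and SFN (133 to 155 FPKM) were present. KRT17 was lower in SKA3-KD (log2 fold change -0.53, adjusted p = 0.0396, limma) and KRT18 was higher (0.30, adjusted p = 0.0332, limma). EPCAM stood at 2.73 to 2.95 FPKM. The squamous basal keratins KRT5 and KRT14 were at or near 0, and CDH1 did not exceed 0.447 FPKM nor CDH3 0.517 FPKM. The 4 leukocyte markers in the table summed to 0.235 to 0.495 FPKM and the 2 endothelial markers to at most 0.0968 FPKM. The 6 fibroblast markers summed to 15.4 and 15.8 FPKM in NC and to 8.86 and 9.56 FPKM in SKA3-KD. DCN gave most of this difference (8.4 and 8.36 against 2.48 and 2.35 FPKM), and COL1A2 was at or near 0 throughout. COL1A1 read 3.22 and 3.99 FPKM in NC and 2.71 and 2.66 FPKM in SKA3-KD. It was called lower by voom on the reads (adjusted p = 0.0116) and not by limma (adjusted p = 0.14). PDGFRB went the other way, at 2.88 and 2.46 FPKM in NC and 3.19 and 4.13 FPKM in SKA3-KD (adjusted p = 0.165 with limma and 0.0166 with voom on the reads). The part of this shift in the results on the p53 targets was not tested. In bulk RNA, fewer cells of a type and less RNA per cell cannot be told apart.

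The promoters of the 9 genes were read from RefSeq (build GRCh38.p14), which held 17 windows for them, each reaching from 250 bases before a transcription start to 50 bases after it. A p53 response element consists of 2 units of 10 bases each, set apart by a short spacer. The windows were searched for this element by its consensus, with a spacer of 0 or 1 base, the core C and G of each unit intact and 2 or fewer mismatches in all. The consensus reads the same on both strands, so both were covered. Of the 9 genes, 2 held such a match, whereas 184 of 27305 genes with a RefSeq promoter did (0.674%). By window, the match was found in 3 of 17 windows of the 9 genes and in 187 of 35116 windows in all. The 9 genes were chosen as p53 targets, so this contrast describes and does not test. The 2 genes with a match, DDB2 and MDM2, are shown for that reason. DDB2 was lower in SKA3-KD and MDM2 was not, whereas CDKN1A, CCNG1, RPS27L and SUSD6 were lower and had no match. Capitals mark the element, and both stretches are on the + strand. The DDB2 stretch ends with its element, and the MDM2 stretch ends just before the transcription start.

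DDB2 promoter, chr11:47214724-47214999: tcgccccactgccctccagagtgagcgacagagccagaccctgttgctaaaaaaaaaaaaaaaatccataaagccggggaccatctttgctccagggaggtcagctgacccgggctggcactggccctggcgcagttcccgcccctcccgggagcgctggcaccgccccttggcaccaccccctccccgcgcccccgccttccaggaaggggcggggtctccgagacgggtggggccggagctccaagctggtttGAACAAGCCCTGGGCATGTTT
MDM2 promoter, chr12:68808767-68809016: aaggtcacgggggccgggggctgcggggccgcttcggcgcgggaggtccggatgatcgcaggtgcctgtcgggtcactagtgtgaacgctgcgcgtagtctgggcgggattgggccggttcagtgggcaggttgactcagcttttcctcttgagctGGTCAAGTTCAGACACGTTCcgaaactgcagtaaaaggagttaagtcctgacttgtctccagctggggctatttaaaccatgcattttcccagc

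The DDB2 element had 0 mismatches with a spacer of 1 base and lay 6 to 26 bases after the start, and an overlapping match in the same window brought its matches to 2. An element with 0 mismatches was found in 7 of 35116 promoter windows (0.0199%). The MDM2 element had 2 mismatches and no spacer, and lay at -94 to -75 from the start of the inner of the MDM2 promoters. The other genes had no match at this limit in these windows, which says nothing of elements elsewhere in the genes. A match describes letters and is not evidence of p53 binding in these cells.

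Of the 9 targets, 5 were lower in SKA3-KD past an adjusted p of 0.05 and 0 were higher (limma on log2(FPKM + 1)). They were CDKN1A, DDB2, CCNG1, RPS27L and SUSD6. Among all 12645 genes tested, 6.11% were lower and 6.16% were higher by the same rule. The median log2 fold change of the 9 genes was -0.38, beside 0.01 over all genes tested, and 8 of the 9 values were below 0. In 7 of the 9, both SKA3-KD libraries lay below both NC libraries, which held for 29.2% of all genes tested, and in 0 of the 9 both lay above (32.3% of all genes tested). The 9 genes and the further lists were chosen with earlier results of these data known, so these contrasts describe and do not test. An exact permutation test of 2 libraries against 2 cannot go below p = 0.333, so the calls rest on the spread limma estimated across all genes, and a gene not called is not shown to be unchanged.

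**Figure D1:**
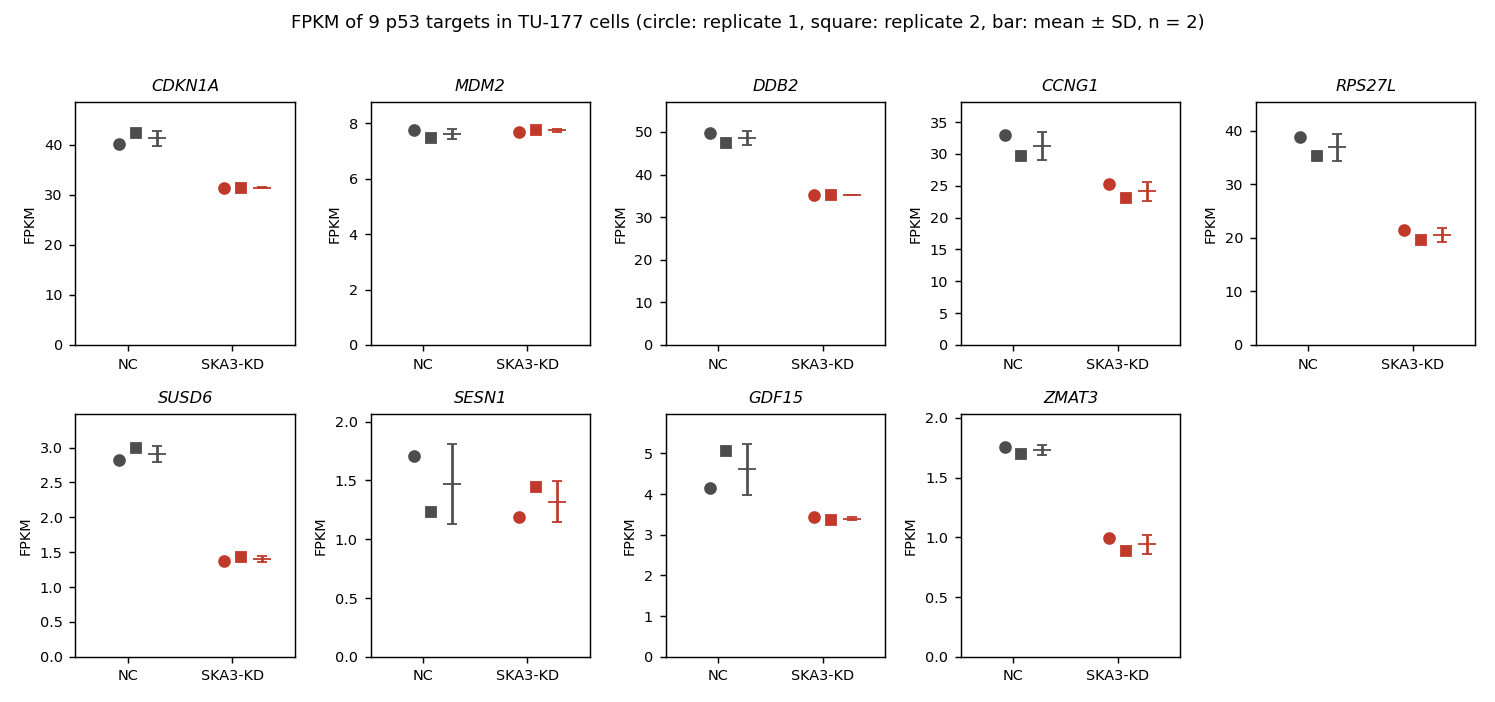
FPKM of the 9 targets in each library (vertical axes in FPKM from 0, 1 panel a gene; circle, replicate 1; square, replicate 2; bar, mean ± SD of n = 2; grey, NC; red, SKA3-KD). The SKA3-KD points lie below the NC points for every gene shown except MDM2 and SESN1, whose groups overlap.

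CDKN1A and CCNG1 are the genes of cell-cycle regulators in the set, and both fell. CDKN1A read 40.2 and 42.3 FPKM in NC and 31.4 and 31.3 FPKM in SKA3-KD. The 2 SKA3-KD libraries were nearly equal and lay below both NC libraries, from 41.2 ± 1.5 to 31.4 ± 0.0492 FPKM (SD, n = 2), a ratio of 0.761. Its log2 fold change was -0.38 (SE 0.06, 95% interval -0.53 to -0.23, adjusted p = 0.0238, limma), from 954 to 1435 recovered reads a library, the smallest possible counts. CDKN1A shares 146 exon bases with DINOL on the opposite strand. DINOL was not analysed here, and the sources used here do not say whether the counting used strand. CCNG1 encodes cyclin G1, which binds a protein phosphatase and takes part in the feedback on p53. It read 32.9 and 29.7 FPKM in NC and 25.2 and 23.1 FPKM in SKA3-KD, again without overlap, although replicates spread more widely than for CDKN1A. Its ratio was 0.771 and its log2 fold change -0.36 (SE 0.08, adjusted p = 0.0495, limma), the closest to the threshold of the 5 genes called. GENCODE 29 lists 1 named pseudogene of CCNG1, with which reads could be shared.

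DDB2 recognises damaged DNA in nucleotide excision repair as part of a ubiquitin ligase with DDB1, CUL4A and RBX1. It read 49.7 and 47.5 FPKM in NC and 35.2 and 35.1 FPKM in SKA3-KD, the highest level of the 9 genes in all 4 libraries. The groups did not overlap, and the ratio of 0.725 corresponded to a log2 fold change of -0.45 (SE 0.06, 95% interval -0.60 to -0.31, adjusted p = 0.0171, limma). This is the gene with the element of 0 mismatches in its promoter shown above, and a link of that element to the change was not tested.

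RPS27L, a ribosomal protein gene induced by p53, had the lowest log2 fold change among the 9 on the log2(FPKM + 1) scale, whereas SUSD6 was lower with a pseudocount of 0.1 or by voom, and ZMAT3 by voom. It read 38.8 and 35.3 FPKM in NC and 21.5 and 19.7 FPKM in SKA3-KD, so that 20.6 ± 1.33 FPKM remained of 37 ± 2.52 (SD, n = 2). The ratio was 0.556 and the log2 fold change -0.82 (SE 0.08, 95% interval -1.02 to -0.61, adjusted p = 0.0115, limma). Only 1.94% of all genes tested had a lower log2 fold change. RPS27, its close paralog and a constitutive ribosomal protein gene, fell as well, from 1199.8 and 1059 FPKM to 836 and 691 FPKM (log2 fold change -0.57, adjusted p = 0.0406, limma). RPS27 has 15 named pseudogenes, and reads may be split between these copies and RPS27L, so the value of either gene is uncertain.

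SUSD6, a gene of a membrane protein that responds to DNA damage, had the lowest ratio of the 9. It read 2.82 and 2.99 FPKM in NC and 1.37 and 1.43 FPKM in SKA3-KD, from 197, 157, 81 and 98 reads. The groups were well apart, with a ratio of 0.48. The log2 fold change of -0.71 (SE 0.11, adjusted p = 0.0249, limma) understates that ratio, since 1 FPKM is added before taking logs and SUSD6 is low. On the recovered reads, limma voom gave -1.05 (adjusted p = 2.72e-05).

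ZMAT3 and GDF15 were lower in both SKA3-KD libraries than in both NC libraries and did not pass the threshold. ZMAT3 encodes a zinc finger protein that binds RNA. It read 1.76 and 1.7 FPKM in NC and 0.998 and 0.888 FPKM in SKA3-KD, a ratio of 0.545 with a log2 fold change of -0.49 (95% interval -0.85 to -0.13, adjusted p = 0.0848, limma). Here the outcome depended on the setting. Limma voom on the reads (203, 148, 98 and 101) called ZMAT3 lower, at -0.88 (adjusted p = 0.000148). On log2(FPKM + 1), eBayes without a trend also called it (-0.49, adjusted p = 0.0447, limma). A pseudocount of 0.1 gave -0.81 and no call (adjusted p = 0.0965, limma). GDF15 encodes a secreted stress factor of the TGF-beta family. It read 4.16 and 5.05 FPKM in NC and 3.44 and 3.37 FPKM in SKA3-KD, and its log2 fold change of -0.34 (95% interval -0.61 to -0.07, adjusted p = 0.1, limma) was not called by voom either (-0.41, adjusted p = 0.115). Its receptor gene GFRAL was listed at 0 in all 4 libraries.

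MDM2 and SESN1 did not differ detectably. MDM2 read 7.75 and 7.47 FPKM in NC and 7.7 and 7.77 FPKM in SKA3-KD, and the groups overlapped. Its log2 fold change was 0.02 with a 95% interval of -0.15 to 0.19 (adjusted p = 0.859, limma), an interval that leaves out the values of the 5 genes called. MDM2 shares 785 exon bases with AC025423.4 on the opposite strand and 439 with the pseudogene AC025423.2 on the same strand, neither of which was analysed here. It also shares 133 exon bases with CPM on the opposite strand, which reached 20.1 FPKM, and whether the counting used strand is not given in the sources used here. SESN1 encodes a sestrin, which restrains the growth kinase complex mTORC1. It read 1.71 and 1.23 FPKM in NC and 1.19 and 1.44 FPKM in SKA3-KD, and the NC libraries alone spanned nearly the whole range. With 57 to 105 reads a library, its 95% interval of -0.52 to 0.34 (log2 fold change -0.09, adjusted p = 0.752, limma) would hold a fall as large as that of CDKN1A. SESN1 shares 363 exon bases with AL390208.1 on the opposite strand, which did not exceed 0.172 FPKM.

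**Figure D2:**
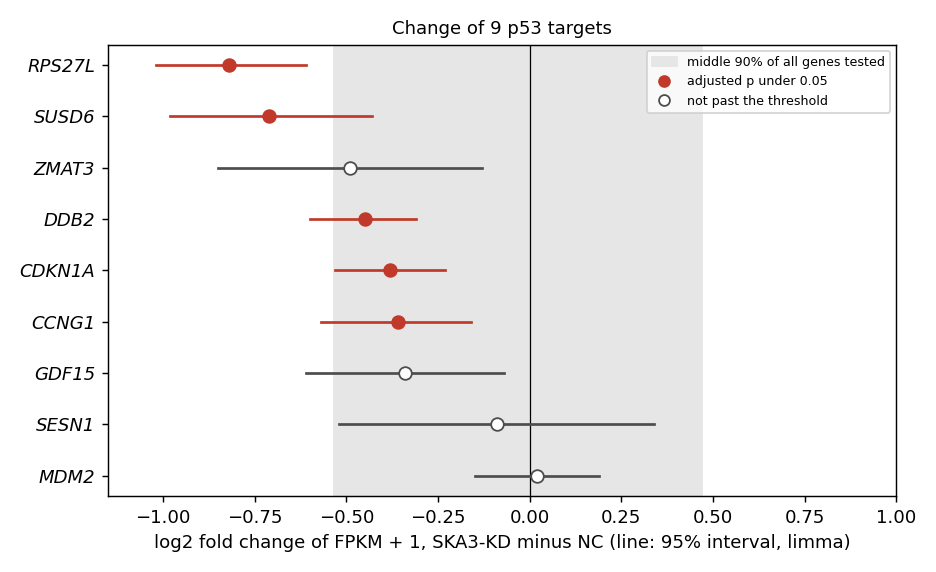
Log2 fold change of FPKM + 1 (horizontal axis, SKA3-KD minus NC) of the 9 targets, with 95% intervals from limma; filled red, adjusted p under 0.05; open, not past it; grey band, the middle 90% of all genes tested, -0.53 to 0.47. RPS27L and SUSD6 lie outside the band, and MDM2 and SESN1 are nearest to 0.

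Set against MDM2 within each library, the called targets were lower in SKA3-KD, a comparison given without a test. CDKN1A stood at 5.19 and 5.66 times the FPKM of MDM2 in NC and at 4.08 and 4.03 times in SKA3-KD. DDB2 went from 6.41 and 6.35 times to 4.58 and 4.52 times, and RPS27L from 5.01 and 4.72 times to 2.8 and 2.53 times. These ratios are free of any scaling between libraries and show unequal change, not that MDM2 was constant. By level per length in NC, the order was DDB2, CDKN1A, RPS27L, CCNG1, MDM2, GDF15, SUSD6, ZMAT3 and SESN1, and of these neighbours ZMAT3 and SESN1 overlapped. In SKA3-KD, RPS27L came after CCNG1, ZMAT3 was last, and SUSD6 overlapped with SESN1.

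Among 23 tested genes of relatives and regulators of p53, 1 was lower and 1 was higher, with a median log2 fold change of -0.01. The share of all genes tested that changed in either direction was 12.3%. The lower gene was RPL23, a ribosomal protein that can bind MDM2 (171 and 151 against 125 and 118 FPKM, log2 fold change -0.40, adjusted p = 0.0379, limma). PPP1R13L, which encodes the p53 inhibitor iASPP, rose from 20.2 and 23.9 FPKM to 32.1 and 38.7 FPKM (log2 fold change 0.66, adjusted p = 0.0355, limma). MDM4, the partner and paralog of MDM2, had a log2 fold change of -0.10 and was not called. The relatives TP63 (0.348 to 0.58 FPKM) and TP73 (0.729 to 0.919 FPKM) were under the filter and were not tested. RNA levels do not give the amount or activity of the p53 protein, which is set largely by degradation and modification.

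Other known p53 targets went in both directions, and their difference from the 9 genes was not tested. Of 52 tested genes in 3 further lists, 4 were lower, 1 was higher and 47 were not called, with a median log2 fold change of -0.06. Among all genes tested, limma called 6.11% lower and 6.16% higher. None of 15 other arrest and repair targets passed the threshold with limma, with 2 lower and 0 higher at an unadjusted p under 0.05, beside 15.1% and 16.2% of all genes tested. Limma voom called 1 of the 15, BTG2, an antiproliferative gene (-0.41, adjusted p = 0.0309). Of all 52 genes it called 11 lower and 2 higher, with 6 lower among the metabolic and signalling targets and 4 among the apoptosis targets. Over all genes tested, voom called 12.4% lower and 13.9% higher, and of the 9 genes it called 6 lower and 0 higher.

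The 21 tested targets of metabolism and signalling gave 2 lower genes and 1 higher gene, beside 6.11% lower and 6.16% higher among all genes tested. RAP2B, a small GTPase, fell from 10.8 and 10.7 FPKM to 4.98 and 6.21 FPKM (log2 fold change -0.84, adjusted p = 0.0175, limma). ATF3, a transcription factor of the stress response, fell from 8.06 and 10.6 FPKM to 4.88 and 4.85 FPKM (log2 fold change -0.80, adjusted p = 0.0265, limma). In the opposite direction, the receptor tyrosine kinase EPHA2 rose from 33.9 and 41.4 FPKM to 57.5 and 63.3 FPKM (log2 fold change 0.67, adjusted p = 0.0281, limma).

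Of 16 tested apoptosis targets, 2 were lower and 0 were higher, beside 6.11% and 6.16% of all genes tested, with a median of 0.03. PERP, a membrane protein of desmosomes as well as a p53 target, had the largest fall of all the lists, from 72.7 and 66.1 FPKM to 20.5 and 18.6 FPKM (log2 fold change -1.77, adjusted p = 0.0065, limma). SIVA1 fell from 30.1 and 28.8 FPKM to 21.9 and 22.1 FPKM (log2 fold change -0.40, adjusted p = 0.0223, limma). The death effector BAX had a log2 fold change of 0.01 and was not called.

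**Figure D3:**
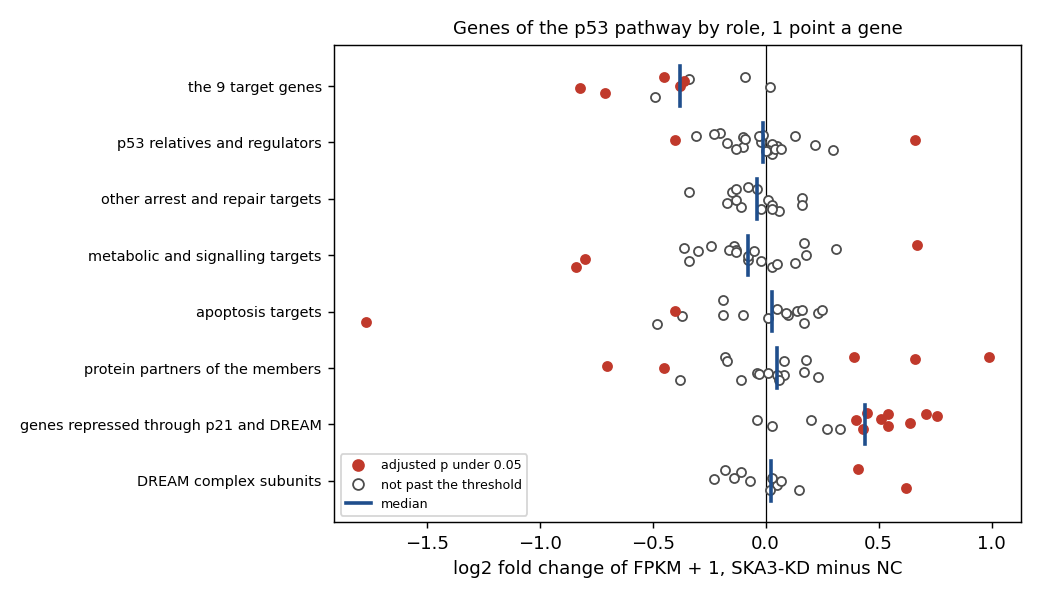
Log2 fold change of FPKM + 1 (horizontal axis, SKA3-KD minus NC) for the genes of each list, 1 point a gene; filled red, adjusted p under 0.05 with limma; open, not past it; blue line, the list's median. The median of the 9 targets is -0.38, those of the other target lists lie between -0.08 and 0.03, and that of the genes repressed through p21 and DREAM is 0.44. All lists were chosen with earlier results of these data known.

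The paralogs of the 9 genes were compared with them, since they share sequence and not always regulation. Of 8 tested, only RPS27 passed the threshold, beside 12.3% of all genes tested in either direction. CDKN1B, the gene of the inhibitor p27, stood at 42.2 and 43.9 FPKM in NC and at 42.5 and 41.7 FPKM in SKA3-KD, with a log2 fold change of -0.03, and CDKN1C, the gene of p57, had -0.14. CCNG2 (-0.26), SESN2 (-0.14), ZMAT2 (-0.01) and ZMAT5 (0.32) were not called, and SESN3 was under the filter (0.294 to 0.674 FPKM).

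Among the genes of proteins that the products of the 9 genes bind, 2 of 19 tested were lower and 3 were higher, beside 6.11% and 6.16% of all genes tested. CDK6, a G1 kinase that p21 binds, rose from 24.7 in each NC library to 49.4 and 50.8 FPKM, a ratio of 2.03 (log2 fold change 0.99, adjusted p = 0.0065, limma). Its cyclin CCND1 rose from 18.1 and 18.8 FPKM to 31.4 and 28.5 FPKM (log2 fold change 0.66, adjusted p = 0.0136, limma). CCNA2, the cyclin of S phase and G2, rose with a log2 fold change of 0.39, whereas CCNE1, the cyclin of S-phase entry, fell from 14.8 and 12.8 FPKM to 10.2 and 9.44 FPKM (log2 fold change -0.45, adjusted p = 0.0407, limma). The kinases CDK4 (-0.18) and CDK2 (0.08) did not pass the threshold. In the ligase that DDB2 joins, CUL4A fell from 95.2 and 86.4 FPKM to 57.3 and 53.9 FPKM (log2 fold change -0.70, adjusted p = 0.0129, limma). DDB1, another partner of DDB2, stood at 35.5 and 34.9 FPKM in NC and at 35.5 in each SKA3-KD library (log2 fold change 0.01).

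**Figure D4:**
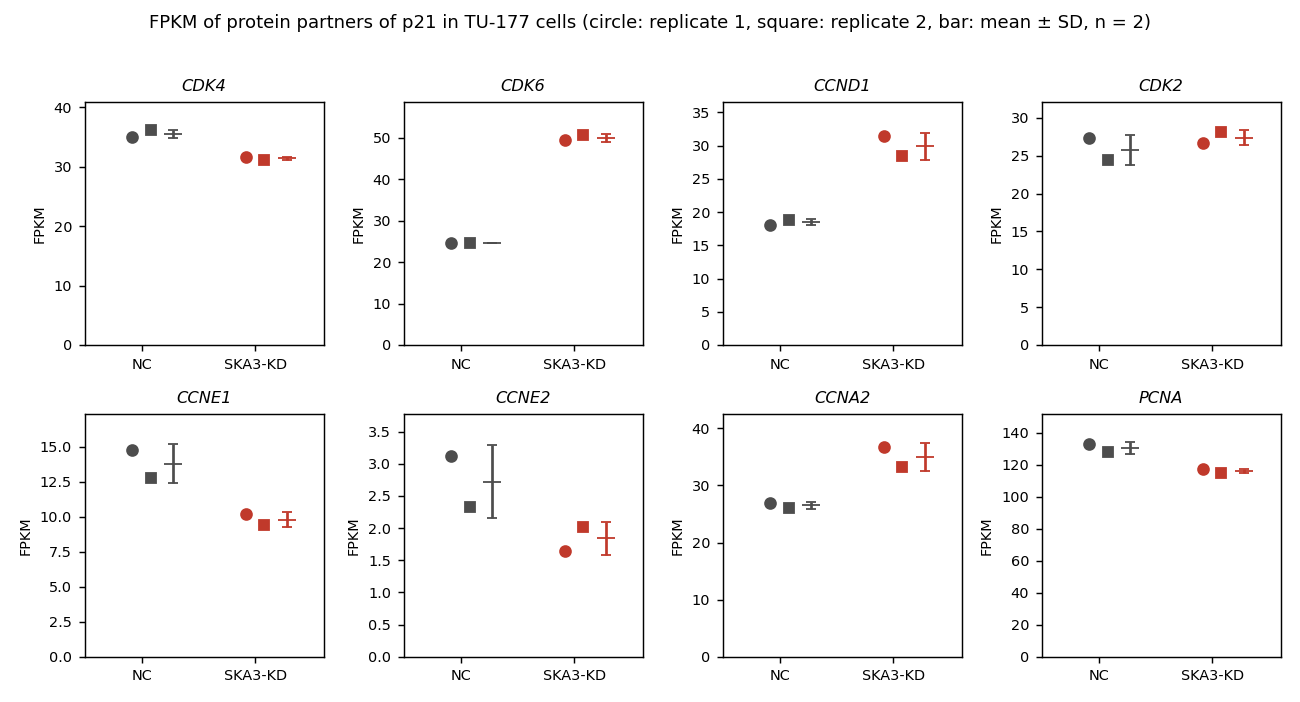
FPKM of genes of proteins that p21 binds in each library (vertical axes in FPKM from 0, 1 panel a gene; circle, replicate 1; square, replicate 2; bar, mean ± SD of n = 2; grey, NC; red, SKA3-KD). CDK6, CCND1 and CCNA2 are higher and CCNE1 is lower past the threshold, and the other 4 were not called.

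Genes known to be repressed through p21 and DREAM were mostly higher. Of 14 tested, 9 were higher and 0 were lower, beside 6.16% higher among all genes tested, and their median log2 fold change was 0.44. Many of them act in mitosis, as SKA3 does, and a link of their rise to the fall of CDKN1A was not tested. PLK1, a mitotic kinase, rose from 23.8 and 25.8 FPKM to 42.4 and 42.8 FPKM (log2 fold change 0.76, adjusted p = 0.0103, limma). BIRC5, which encodes survivin, rose from 5.65 and 4.62 FPKM to 8.96 and 9.09 FPKM (log2 fold change 0.71, adjusted p = 0.0212, limma). CCNB1, the cyclin of mitotic entry, rose from 88.9 and 79.3 FPKM to 134 and 129 FPKM (log2 fold change 0.64, adjusted p = 0.015, limma). AURKA (0.54), CDC20 (0.54), KIF23 (0.51), CCNB2 (0.45) and PRC1 (0.43) also rose, each log2 fold change past the threshold. CDK1, the partner of cyclin B1, had a log2 fold change of -0.04 with overlapping groups. Of 12 tested subunits of DREAM and its activating counterpart, 2 were higher, MYBL2 (0.62) and FOXM1 (0.41), and 0 were lower, with a median of 0.03.

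The calls on the 9 genes depended on the settings more than the fold changes did. All 5 calls were lost without any 1 of the 4 libraries (NC 1, NC 2, SKA3-KD 1 or SKA3-KD 2), although the log2 fold changes of CDKN1A then stayed between -0.42 and -0.35 and those of RPS27L between -0.88 and -0.75. Without the filter on low values, 0 of the 9 passed, and RPS27L and DDB2 then each had an adjusted p of 0.0542 (limma).

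**Figure D5:**
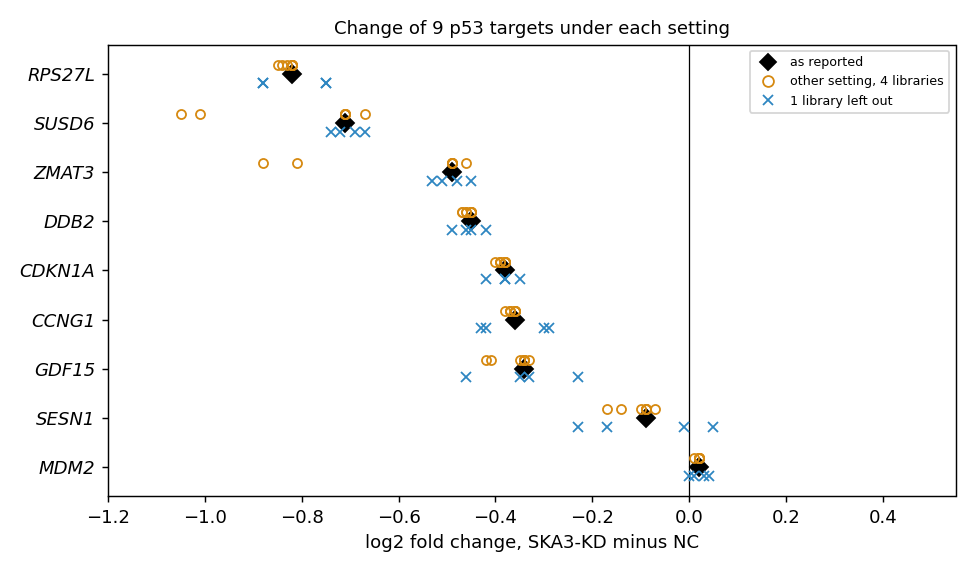
Log2 fold change (horizontal axis, SKA3-KD minus NC, each on the scale of its own setting) of the 9 targets as reported (diamond), under the other settings with all 4 libraries (circles) and with 1 library left out (crosses). The values of CDKN1A, DDB2, CCNG1, RPS27L and SUSD6 stay below 0 throughout, whereas MDM2 and SESN1 reach or cross 0.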

How the data were processed

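The labels map 4 RNA-seq libraries of TU-177 cells to NC (2) and SKA3-KD (2). Trizol was used to extract the RNA, and libraries were run on an Illumina HiSeq. Gene-level FPKM values were made and deposited by the authors. The submitters' processing notes name hg19, Bowtie2 2.2.8, HISAT2, StringTie 1.3.1 and Cuffdiff 2.1.1 without their roles, and whether strand was used in counting is not given in the sources used here. The labels describe lentiviral shRNA. The paper's methods also describe other knockdown tools, and the labels were followed.

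All value columns belonged to these libraries (0 others). Of 28729 genes, 26504 were above 0 in at least 1 library. Symbols and exon lengths came from GENCODE 29 (GRCh38), matched by Ensembl identifier for 27199 genes, and RefSeq promoters (GRCh38.p14) were found for 9 of 9 genes. hg19 is another build, so no coordinate of the authors' files was used.

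SKA3-KD was compared with NC by limma 3.58.1 in R 4.3.3 (lmFit, eBayes with a trend) on log2(FPKM + 1), for 12645 genes with a mean of at least 1 FPKM. P-values were adjusted by Benjamini-Hochberg over all of these, with a threshold of 0.05, and are two-sided. Whole reads were recovered from the FPKM steps for 100% of the genes tested, within 0.01 of a read, from the GENCODE 29 exon length for 61.3% and from the shortest length that gave whole reads for 38.7%. Limma voom was run on these reads as an alternative.

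The genes named are the 9 targets, SKA3, relatives of p53, the paralogs, and from each further list every gene past the threshold, up to the 8 with the largest change. BTG2, BAX, CDK1, CDK2, CDK4, DDB1, GFRAL, DCN and PDGFRB, and the other markers given, were named outside this rule with their values seen. The 9 targets and all lists were chosen with earlier results of these data known, and some genes stand in more than 1 list. Replicates of a group differed by more than counting noise (chi-square per degree of freedom 3.16 in NC and 3.15 in SKA3-KD). Results that need 1 further gene are not reported here. The fits were tested on simulated data, where limma on log2(FPKM + 1) missed most of the smaller changes and voom missed fewer. Python 3.11.15, numpy 2.4.6, pandas 2.3.3, scipy 1.17.1 and matplotlib 3.10.9 were used for the remaining steps.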

Additional observations from a re-analysis of the deposited data

How the results depend on the processing

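The count of 5 lower targets stayed within 1.5 times under a pseudocount of 0.1, a mean of at least 5 FPKM (4 of 5 tested), quantile normalization, median-of-ratios scaling, robust eBayes, no trend, the replicate block and limma voom on recovered reads. It was 0 without the filter and 0 to 0 with 1 library left out. Over all genes, 772 were lower and 779 higher. These counts were 81 and 48 without the filter, 381 and 312 for eBayes without a trend, and 1563 and 1763 with voom. With 1 library left out, 0 to 135 were lower and 0 to 46 higher, the lone library being assumed to vary like the others, and 0 were called in either direction without NC 1 or without NC 2. The causes were not tested. CDKN1A (adjusted p = 0.0582, limma) and CCNG1 (0.0903) were lost without a trend, and ZMAT3 (0.0447) was gained. Values that changed sign, all in genes not called, were MDM2 (-0.00) and SESN2 (0.01) without NC 2, and SESN1 (0.05) and ZMAT2 (0.09) without NC 1. With 1 library left out they ranged from -0.00 to 0.04, -0.29 to 0.01, -0.23 to 0.05 and -0.11 to 0.09, respectively. Voom called 5 relatives and regulators of p53 lower in place of 1 and 3 higher in place of 1, and 11 of the 52 other targets lower in place of 4, with 2 higher in place of 1. Deviations of same-numbered libraries correlated at 0.0973 over genes, and whether these libraries share more than a number was not tested. With the replicate block, 965 genes were lower and 1002 higher, and 5 of the 9 targets were lower. Genes with few reads, such as SESN1 (57 to 105), limit what could be detected.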
